A study of Mus musculus with 3 samples.

Results

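The genes described here are those that lipopolysaccharide (LPS) raised in mouse bone marrow-derived dendritic cells (BMDCs) and that were lower again when the cyclic AMP analogue 8-Br-cAMP was given with it. Members were chosen by their measured values. The signal with LPS had to be at least 2-fold above that of unstimulated cells, and the signal with LPS plus 8-Br-cAMP at least 2-fold below that with LPS. Tnf and the symbols starting with Ccl, Cxcl, Ifi, Oas, Gbp, Slfn, Trim, Tlr, Irf or Mx were left out by name. Of 18193 genes with a probe set of their own, 815 were LPS-raised, 148 of these were cut, 19 of the 148 were left out by name and 129 were members. Of the 129, 123 carried a gene name and 6 were clone or model identifiers, which were counted and not described.

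The study measured 1 Affymetrix Mouse 430 2.0 array for each of 3 cultures of BMDCs, antigen-presenting cells grown from bone marrow for 10 days with 10 ng/ml of the growth factor GM-CSF. The labels give no strain, genotype or animal. The cells were unstimulated, given 10 ng/ml of LPS from Escherichia coli 055:B5 for 3 h, or given the same LPS with 100 µM 8-Br-cAMP for 3 h; the array titles call the analogue cAMP. With 1 array per condition there was no replicate and no test, and every difference below is between single cultures. No culture had 8-Br-cAMP without LPS.

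LPS is sensed by the Tlr4 receptor complex, which switches on NF-kB, MAP kinases and interferon regulatory factors and so induces cytokines, interferon beta and, through interferon beta, a later set of antiviral genes. Cyclic AMP acts through protein kinase A and Epac, and protein kinase A phosphorylates CREB and related factors. In macrophages and dendritic cells it is known for lowering Tnf and raising Il10. 8-Br-cAMP enters cells and is broken down more slowly than cyclic AMP itself.

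Signals were MAS5 signals scaled to a common trimmed mean, and a signal under a floor of 32.5 was set to that floor before log2 was taken. Where 1 of the arrays compared was under the floor, the true difference may be larger, and "at least" or "a bound" marks it; ranges and medians over members include such values. The error of 1 probe set, taken from the scatter between the brightest 2 probe sets of 5285 genes, was 0.53 log2 units for LPS+8-Br-cAMP against LPS, and 0.49 for LPS against unstimulated over 5320 genes. It covers these arrays and not the spread between cultures. Signals of different probe sets are not on a common scale, so levels are compared between arrays and not between genes.

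The cultures also differed in transcripts of other cells and of sex. All 18 dendritic cell and macrophage markers were above the floor on every array, although Flt3, Cd209a and Zbtb46, which lean to dendritic cells, read only 36.8 to 121. Of 14 granulocyte markers 9 were at least 2-fold lower with 8-Br-cAMP, and their summed signal was 43886, 45977 and 24202 on the unstimulated, LPS and LPS+8-Br-cAMP arrays. Summed signals in the same order were 7298, 5623 and 5281 for B and plasma cell markers (3 of 12 measured at least 2-fold lower with 8-Br-cAMP), 2069, 1971 and 935 for eosinophil, basophil and mast cell markers (4 of 9), 8228, 9371 and 7223 for erythroid and platelet markers, and 5042, 4235 and 4096 for stromal markers. The B and plasma cell sum hides opposite differences from LPS to LPS+8-Br-cAMP, since the antibody genes Ighm (1495 to 52.5), Igha (881 to 57.0) and Jchain (529 to 23.2) were lower and Sdc1 (1540 to 3864) was higher. Xist, which female cells transcribe, read 32.3, 8.08 and 1716, and the Y-linked Eif2s3y read 352, 272 and 1.24. The LPS+8-Br-cAMP array thus differed from both others in transcripts of either sex, and the labels name no animals, so 8-Br-cAMP and a difference between animals cannot be told apart in any comparison below that uses this array. No marker of these lists was a member. Their part in the differences below was not tested. In bulk cultures, fewer cells of a type and less RNA per cell cannot be told apart.

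With LPS the 129 members had log2 differences from unstimulated of 1.0 to 7.14, with a median of 1.62, against a median of -0.21 over all 12283 measured genes. Their differences from LPS to LPS+8-Br-cAMP ran from -3.21 to -1.0 with a median of -1.30, against 0.049 over 12572 measured genes. These values chose the members and are given as a description. As background, LPS raised 6.64% of measured genes 2-fold or more, and from LPS to LPS+8-Br-cAMP 5.81% were lower and 6.49% higher by that much. Of measured genes that LPS had not raised, 4.95% were lower. Of the LPS-raised genes 18.2% (148 of 815, 95% Wilson interval 15.7 to 21.0) were cut, and 5.4% (44) were at least 2-fold higher still. The share cut was 29.7% of the 64 LPS-raised genes left out by name (19.9 to 41.8) and 17.2% of the 751 others (14.6 to 20.04). The Wilson intervals, here and below, treat genes as independent. They cover neither the spread between cultures nor the error of the arrays, and they test no difference. Both differences share the LPS array, so a probe set that read high there alone meets both parts of the rule.

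**Figure D1:**
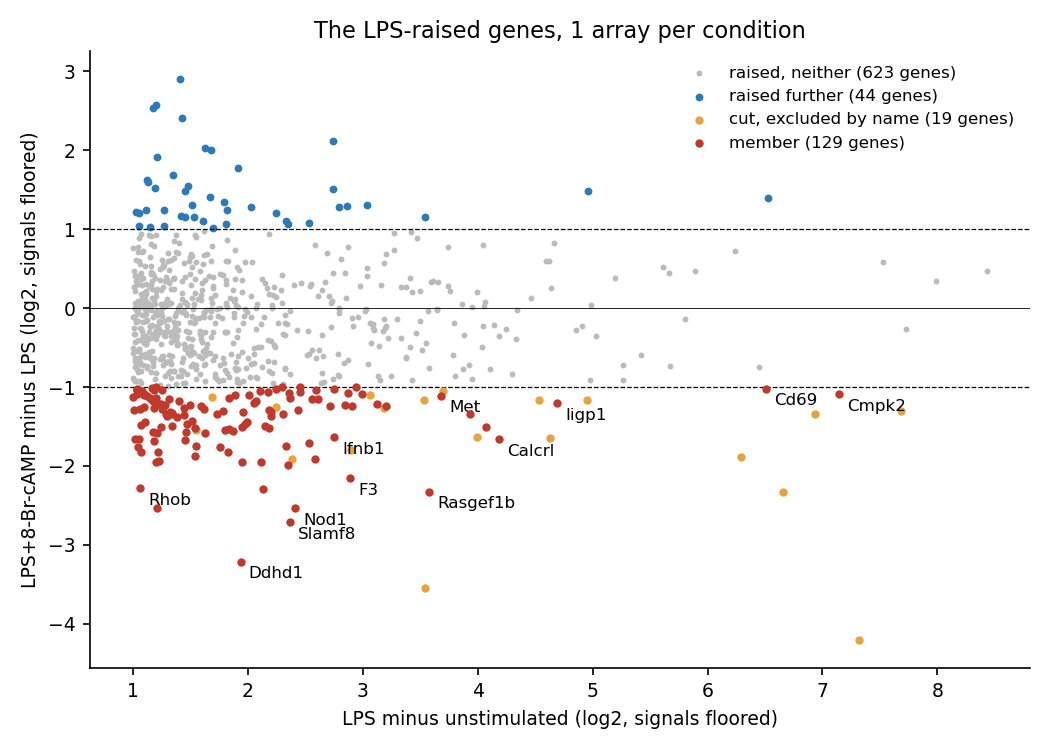
Each point is 1 of the 815 LPS-raised genes, with its log2 difference from unstimulated to LPS on the horizontal axis and from LPS to LPS+8-Br-cAMP on the vertical axis; dashed lines mark 2-fold. The 129 members (red) lie at or below -1, most of them at rises of 1 to 3, with Cmpk2 and Cd69 far to the right near the dashed line and Ddhd1 lowest at -3.21; the 19 genes left out by name are orange and the 44 raised further are blue.

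Most members passed by a small margin. For 94 of 129 the drop passed 2-fold by less than the error of 1 probe set, and for 58 the rise did. Both passed by more than that error for 21. A drop of at least 3-fold was seen in 30 members and of at least 4-fold in 8. Just inside the limit for the drop were Malt1 (-1.0), Lipg (-1.0) and Macir (-1.0), and just outside it were Orm1 (-0.99), Stk38l (-0.98) and Dse (-0.96). For the rise, Ncoa5 (1.0), Zfp263 (1.01) and Fabp4 (1.02) were just inside, and Chil1 (0.995) and Tet2 (0.995) just outside, as was BC064078 (0.991). Above the floor on all 3 arrays were 88 members, while 19 were above it only with LPS, 14 were under it unstimulated alone and 8 under it with LPS+8-Br-cAMP alone.

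The largest drop among members was that of Ddhd1, a phospholipase that cleaves phosphatidic acid. Its signal was 305 in unstimulated cells, 1165 with LPS and 126 when 8-Br-cAMP was added, a log2 difference of -3.21 from LPS. Its level with 8-Br-cAMP was thus below both other arrays, and its second probe set did the same with 212, 571 and 84.4. Slamf8, a surface receptor of the SLAM family made by myeloid cells, read 44.4, 229 and 35.0 in the same order (-2.71). Nod1, the cytosolic sensor of bacterial peptidoglycan fragments, read 61.4, 326 and 56.1 (-2.54). In Slamf8 and Nod1 only the LPS array was high. Ms4a4b, a tetraspanning membrane protein best known from T cells, read 95.5, 221 and 38.3 (-2.53), but its second probe set was near the floor, with 34.8 under LPS, and under it with 8-Br-cAMP (-0.10, a bound).

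Rasgef1b, an exchange factor for Ras-family GTPases that Toll-like receptor signals induce, was under the floor unstimulated and read 387 with LPS and 77.3 with 8-Br-cAMP (-2.32). It stayed at least 1.25 log2 units above unstimulated. Zc3h12c, an RNase-domain protein related to Regnase-1, read 77.3, 338 and 69.2 (-2.29), and its second probe set went from 149 with LPS to 13.6, under the floor. Rhob, a small GTPase of endosomes and the actin cytoskeleton, read 1389, 2895 and 597 (-2.28). F3, tissue factor, which starts blood coagulation, read 48.7, 360 and 80.6 (-2.16). Cp, the copper-carrying ferroxidase ceruloplasmin, was under the floor unstimulated and read 166 with LPS and 41.9 with 8-Br-cAMP (-1.99). Cited2, a coactivator that competes with Hif1a for CBP and p300, read 677, 2924 and 755 (-1.95), and 153, 623 and 141 by its second probe set. In these 6 genes the LPS array was highest, as the rule requires. Only Rhob was at least 2-fold below unstimulated with 8-Br-cAMP.

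**Figure D2:**
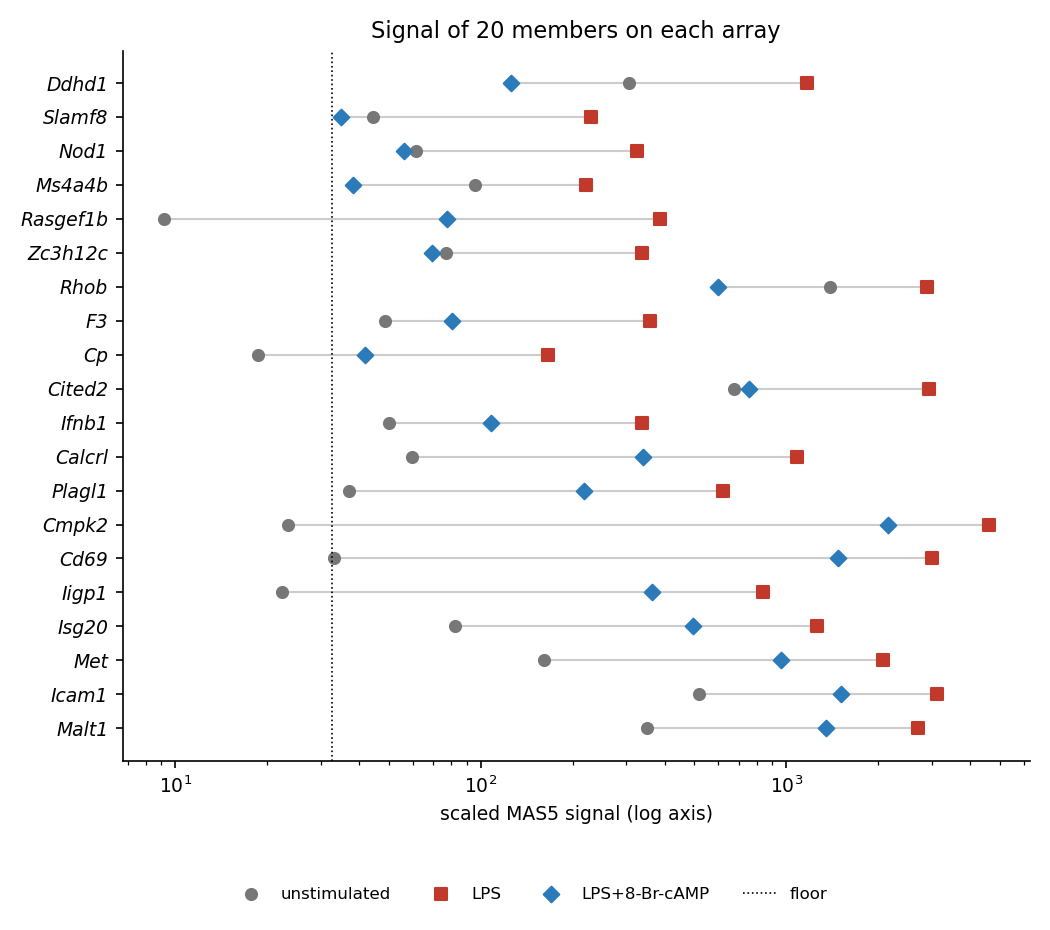
Scaled MAS5 signal (log axis) of 20 members on the unstimulated (grey circle), LPS (red square) and LPS+8-Br-cAMP (blue diamond) arrays, 1 array each; the dotted line is the floor of 32.5. From Ddhd1 to Cited2 the blue mark lies near or left of the grey one in most genes, while in Cmpk2, Cd69 and Iigp1 it stays far to the right of it.

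Promoter sequence was looked at for the members, whose shared direction is set by the rule that chose them. RefSeq (GRCm38.p6) gave 143 windows for 111 members, each of 300 bases from 250 before to 50 after a gene's start. The windows below belong to the members with the largest drop on lists of genes by role. These are costimulation genes (Slamf8), NF-kB and MAP kinase genes (Rasgef1b), sensors (Nod1) and the antiviral effector list (Ms4a4b). That last list is wider than its name, since Ms4a4b is best known from T cells. Ifnb1 was added after its values were seen because its enhancer is the textbook case of NF-kB control. The windows are chr1:172590519-172590818 (minus strand), chr5:99252878-99253177 (minus), chr6:54971612-54971911 (minus), chr19:11443308-11443607 (plus) and chr4:88522745-88523044 (minus), printed 5′ to 3′ along the gene. Capitals mark matches on either strand to NF-kB (GGG, any 3 bases, then TTCC), the interferon-stimulated response element or ISRE (GAAA, any 2 bases, then GAAA), AP-1 (TGANTCA), C/EBP (TTGCNNAA) and CRE (TGACGTCA), where N is any base.
Slamf8: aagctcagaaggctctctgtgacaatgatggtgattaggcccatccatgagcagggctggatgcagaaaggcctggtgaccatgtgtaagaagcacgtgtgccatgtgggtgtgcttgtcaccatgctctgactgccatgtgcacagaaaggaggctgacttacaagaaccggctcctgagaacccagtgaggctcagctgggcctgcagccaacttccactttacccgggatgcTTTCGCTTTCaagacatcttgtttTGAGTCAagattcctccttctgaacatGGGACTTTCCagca
Rasgef1b: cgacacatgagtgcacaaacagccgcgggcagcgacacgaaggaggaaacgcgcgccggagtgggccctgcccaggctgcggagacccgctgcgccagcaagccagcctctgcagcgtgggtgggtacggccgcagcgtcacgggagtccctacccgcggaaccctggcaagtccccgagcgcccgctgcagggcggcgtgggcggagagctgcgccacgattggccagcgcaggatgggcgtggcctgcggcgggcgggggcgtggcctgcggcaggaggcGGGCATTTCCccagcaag
Nod1: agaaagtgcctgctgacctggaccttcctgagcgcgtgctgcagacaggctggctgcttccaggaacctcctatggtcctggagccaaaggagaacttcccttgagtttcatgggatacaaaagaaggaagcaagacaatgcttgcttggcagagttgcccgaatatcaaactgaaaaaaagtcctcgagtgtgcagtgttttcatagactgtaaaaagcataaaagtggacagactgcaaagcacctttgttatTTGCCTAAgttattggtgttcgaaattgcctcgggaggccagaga
Ms4a4b: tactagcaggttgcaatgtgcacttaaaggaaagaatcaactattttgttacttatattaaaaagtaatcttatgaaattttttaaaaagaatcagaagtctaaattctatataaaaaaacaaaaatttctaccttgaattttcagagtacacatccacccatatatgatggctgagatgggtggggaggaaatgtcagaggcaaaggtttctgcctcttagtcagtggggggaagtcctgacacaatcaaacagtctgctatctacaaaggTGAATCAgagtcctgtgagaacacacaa
Ifnb1: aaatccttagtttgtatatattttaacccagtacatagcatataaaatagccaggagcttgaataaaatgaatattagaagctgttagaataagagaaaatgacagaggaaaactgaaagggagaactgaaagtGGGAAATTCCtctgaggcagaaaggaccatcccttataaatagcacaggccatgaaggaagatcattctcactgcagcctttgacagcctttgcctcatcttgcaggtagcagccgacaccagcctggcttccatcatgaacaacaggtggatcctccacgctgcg

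Slamf8 had an NF-kB match 37 bases, an AP-1 match 10 bases after the start and an ISRE match at -15. Rasgef1b had an NF-kB match at 33 and Ifnb1 at -116, Nod1 a C/EBP match at 6 and Ms4a4b an AP-1 match at 23. By the same rule of choice Il20rb held a C/EBP match at -78, Gzmb an AP-1 match at -58 and Cp an AP-1 match at -177, and the windows of Ifng, Atf3 and Rhob held none of these letters. For a gene with several windows, the window with the most matches was taken, and at a tie the first by coordinate. Nod1 and Cp had 2 windows each. The window not taken held none of these letters for Nod1 and a C/EBP match for Cp. Among all 143 member windows 5.59% held the NF-kB letters, against 5.55% of all 32851 windows and 10.0% of 699 windows of LPS-raised genes that were not cut. ISRE letters were in 3.50%, 3.44% and 7.87% in the same order, AP-1 in 9.79%, 7.81% and 8.58%, C/EBP in 10.5%, 10.8% and 15.5%, and CRE in 2.10%, 1.79% and 3.29%. The members' shares of NF-kB and ISRE letters were thus near those of all windows. The LPS-raised genes not cut still included the families that were left out of the members by name. The part of those families in the higher shares of that set was not tested. A match describes letters in this window and shows no binding, and regulatory sequence outside it was not looked at.

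Cytokines and growth factors had 20 LPS-raised genes of 39 measured, of which 6 were cut and 1 was raised further. Over the 20, the median difference with 8-Br-cAMP was -0.68, against -0.28 over all LPS-raised genes. Ifnb1, interferon beta, read 50.02, 337 and 108 (-1.64), so it stayed 1.11 above unstimulated. Ifng, the interferon made mainly by T and natural killer cells, was above the floor only with LPS, at 126 (at least 3.87-fold lower with 8-Br-cAMP). The same held for Lta, lymphotoxin alpha, at 90.2 (at least 2.77-fold), Csf2, which encodes GM-CSF, at 81.6 (at least 2.51-fold), and the epidermal growth factor family member Ereg at 70.6 (at least 2.17-fold). These 4 genes were dim, and the LPS array alone placed them among the members. Edn1, the vasoconstrictor endothelin 1, read 49.3, 149 and 63.1 (-1.24).

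Other LPS-raised cytokines were not cut 2-fold. The interleukin 12 subunits Il12b and Il12a differed by -0.91 and -0.62 with 8-Br-cAMP, Il1a by -0.75 and the activin subunit Inhba by -0.86. Il1b differed by 0.68, and Il23a, a subunit of interleukin 23, was higher by 1.10. For reference, Tnf, left out by name, was under the floor unstimulated and read 5206 with LPS and 283 with 8-Br-cAMP. Crem and Fos, cAMP-responsive transcription factors, read 1983 and 1410 with 8-Br-cAMP against 116 and 190 with LPS.

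Ifng, Lat and Gzmb are genes of T or natural killer cells, so those markers are given beside them. Lat, an adaptor of the T cell receptor, read 37.2, 109 and 10.4, and Gzmb, the protease granzyme B, was above the floor only with LPS, at 81.3. Of 10 T cell markers 5, 3 and 1 were above the floor on the unstimulated, LPS and LPS+8-Br-cAMP arrays, with summed signals of 455, 424 and 373, of which Zap70 alone gave 115, 130 and 247. Lat is itself on this list, so its 37.2, 109 and 10.4 are part of these sums and counts. Cd3e, Cd3g and Thy1 were under the floor on all 3 arrays. Of 9 natural killer markers 5 were above it on each array, with summed signals of 524, 456 and 567. Gzmb is itself on this list, and its 81.3 is part of the sum and count with LPS. The part of such cells in the values of Ifng, Lat and Gzmb was not tested.

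Cytokine receptors had 9 LPS-raised genes of 45 measured and 2 members. Il20rb, a chain of the receptors for interleukins 20 and 24, read 39.9, 154 and 62.0 (-1.32). Il10ra, the ligand-binding chain of the interleukin 10 receptor, read 193, 401 and 165 (-1.28). Its second probe set, which was under the floor with LPS, differed by -1.08 (a bound) from unstimulated to LPS, so the rise of Il10ra was not shared. Cd40 (-0.91) and Il15ra (-0.72) fell short of 2-fold, and Ifnar1 (-0.0050) and Tnfrsf1b (-0.10) hardly differed.

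Of 38 measured sensors and adaptors 18 were LPS-raised and 3 were members, Nod1, Aim2 and Nlrc5. Aim2, the sensor of cytosolic DNA that forms an inflammasome, read 79.3, 290 and 98.8 (-1.55). Nlrc5, which drives transcription of MHC class I genes, read 124, 983 and 464 (-1.08) and stayed 1.91 above unstimulated. Of these 3, only Nlrc5 kept a signal over 2-fold above unstimulated. The adaptor Myd88 differed by -0.010 with 8-Br-cAMP, the RNA sensor Ddx58 by -0.23, the inflammasome protease Casp1 by -0.86 and the LPS coreceptor Cd14 by 0.92. On this list 15 of 18 LPS-raised genes were within 2-fold and 0 were raised further. Of the LPS-raised Tlr genes left out by name, Tlr1, which is not on this list, was cut (-1.91), and Tlr2 (0.049) and Tlr3 (-0.54) were not.

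In NF-kB and MAP kinase signalling 37 of 68 measured genes were LPS-raised, 6 were members and 2 were raised further, Rel (1.07) and the phosphatase Dusp2 (1.15). Beside Rasgef1b, Zc3h12c and Rhob, the members were Arhgef3, which read 178, 403 and 168 (-1.26), Mapkapk2 and Malt1. Mapkapk2, the kinase below p38 that steadies cytokine mRNAs, read 365, 1998 and 957 (-1.06). Malt1, a paracaspase and scaffold of NF-kB activation, read 350, 2695 and 1346 (-1.0), and 296, 3379 and 647 (-2.38) by its second probe set. Both stayed over 2-fold above unstimulated. The inhibitors Nfkbia (0.68), Tnfaip3 (0.77) and Tnip1 (0.80) and the subunit Nfkb2 (0.28) were not lower, and Tank (-0.95), Peli1 (-0.76) and Ikbke (-0.76) were lower by under 2-fold. Over the 37 genes the median was -0.055.

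Interferon signalling components had 13 LPS-raised genes of 25 measured and 0 members, with a median of -0.0050. Stat2 differed by -0.13, Socs1 by -0.031, Jak2 by 0.58 and Usp18 by 0.52, and the phosphatase Ptpn2 was higher by 1.03. The signal of Ifnb1 was 3.11-fold lower, while those of the LPS-raised components on this list were within 2-fold or higher. Of the LPS-raised Irf genes left out by name, Irf1, which is not on this list, was cut (463, 3870 and 1801, -1.10). Irf7 (0.20) and Irf9 (0.24) were not.

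The antiviral effector list had 56 LPS-raised genes of 71 measured. Of these, 7 were cut, 6 of them members and 1, Oasl2, left out by name. The list is wider than its name, since it holds Cd69 and Ms4a4b, which are described here by other roles. None of the 56 was raised further, and their median was -0.26. Ifit3 (-1.88), Ifit2 (-1.30) and Oas1b (-1.55, a bound), also left out by name, were cut too but are not on this list. Of all 64 LPS-raised genes left out by name 19 were cut. Cmpk2, a mitochondrial nucleotide kinase, was under the floor unstimulated and read 4594 with LPS and 2155 with 8-Br-cAMP (-1.09). Cd69, an early activation antigen, read 33, 3004 and 1479 (-1.02). Iigp1, an immunity-related GTPase, was under the floor unstimulated and read 838 and 364 (-1.20), Isg20, an RNA exonuclease, read 82.3, 1259 and 497 (-1.34), and Ddx60, a helicase, read 46.9, 431 and 182 (-1.24). On the log2 scale these 5 kept most of their rise, with 8-Br-cAMP signals of 1.96 to at least 6.05 log2 units above unstimulated. In linear signal each was over 2-fold lower than with LPS, as the rule requires. By their second probe sets Iigp1 (454 with LPS and 316 with 8-Br-cAMP, -0.52) and Ddx60 (76.7 and 45.6, -0.75) fell short of 2-fold, while Cmpk2 (2889 and 982, -1.56) did not. Of the 6 members here, only Ms4a4b was below unstimulated. Mlkl (-0.94), Phf11d (-0.77), Parp14 (-0.49), Irgm1 (-0.22) and Rtp4 (0.037) were not cut 2-fold.

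In antigen presentation and costimulation 21 of 51 measured genes were LPS-raised, 5 were members and 2 were raised further, Cd80 (1.10) and Cd70 (1.31). The median over the 21 was -0.65. Besides Slamf8 and Nlrc5, the members were H2-T24, Ly9 and Slamf7. Slamf7, a self-binding SLAM receptor, read 143, 785 and 391 (-1.01), and Ly9, another SLAM receptor, read 36.3, 77.5 and, under the floor, 23.8. H2-T24, a nonclassical MHC class I gene, read 54.8, 115 and, under the floor, 27.7. H2-Q5, a class I gene that RefSeq lists as a transcribed pseudogene, was under the floor unstimulated and read 284 and 122 (-1.22). Class I genes have close copies that a probe set may share, so these 2 are uncertain. So 3 SLAM family genes were members, and Slamf1 differed by 0.77.

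Only 2 of 27 LPS-raised transcription factors and chromatin genes were members, and 2 were raised further, Junb (1.04) and Ets2 (1.55). Atf3, a stress-induced factor that restrains Toll-like receptor responses, read 783, 2421 and 810 (-1.58). Nupr1, a small stress-induced chromatin protein, read 243, 1826 and 770 (-1.25). Atf3 was back within 0.05 of unstimulated and Nupr1 stayed 1.66 above it. The median over the 27 was 0.021, with Hivep3 at -0.89 and Nr4a3 at 0.83.

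Among cell death and survival genes 14 of 41 were LPS-raised and the members were Gzmb and Cflar. Cflar, which blocks activation of caspase 8, read 277, 1821 and 771 (-1.24), but its second probe set read 38.1, 1486 and 1280 and differed by -0.22. Of its 5 probe sets the third read 110, 669 and 329 (-1.02), and the others differed by -0.39 and, as a bound, by -0.95. All 5 were highest with LPS, and they disagreed on the size of the drop. Birc3 (0.23) and Pim1 (0.12), which favour survival, were not lower.

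Adhesion, migration and cytoskeleton genes had 21 LPS-raised of 61 measured, 4 of them members and 2 raised further, Itgb8 (1.01) and Sema4c (1.6). Icam1, the adhesion ligand of leukocyte integrins, read 517, 3115 and 1514 (-1.04). Mmp13, a collagenase, read 1566, 7124 and 2909 (-1.29), and Nrp2, a receptor for semaphorins and Vegfc, read 447, 2027 and 710 (-1.51). Nrp2 repeated this by its second probe set, with 256, 1336 and 626. Vcam1, another adhesion ligand, differed by -0.85.

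In metabolism and transport 42 of 93 measured genes were LPS-raised, 6 were members and 3 were raised further, the metallothioneins Mt1 (1.40) and Mt2 (1.51) and the fatty acid receptor Gpr84 (1.21). Apart from Cp and Cmpk2, the members were P2ry13, Aldh1b1, Ch25h and Lipg. P2ry13, a receptor for ADP, read 63.8, 174 and 54.5 (-1.68), and Aldh1b1, a mitochondrial aldehyde dehydrogenase, read 49.2, 300 and 135 (-1.15). Ch25h, which makes the antiviral oxysterol 25-hydroxycholesterol, read 51.6, 377 and 179 (-1.07). Lipg, endothelial lipase, was under the floor unstimulated and read 160 and 79.9 (-1.0), but 57.8 and 65.5 by its second probe set. The inducible enzymes Nos2 (0.62), Ptgs2 (0.44) and Acod1 (0.47) were not lower. Of the cAMP pathway list 2 of 33 genes were LPS-raised, Pde4b (raised further by 1.17) and Nr4a3, and 0 were members. Not on this list were the members Adcy5, an adenylate cyclase, and Calcrl, a receptor that raises cyclic AMP, both described below.

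**Figure D3:**
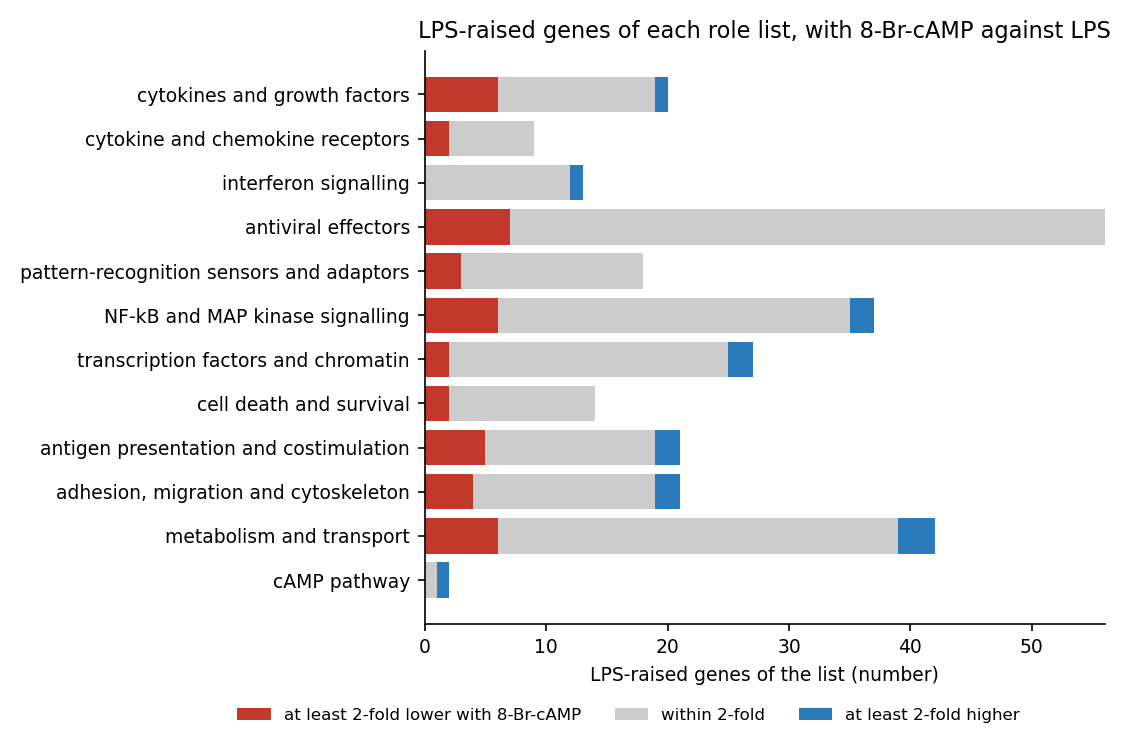
Bars give the number of LPS-raised genes on each list, split into those at least 2-fold lower (red), within 2-fold (grey) and at least 2-fold higher (blue) with 8-Br-cAMP against LPS. The red part is 6 of 20 for cytokines and 7 of 56 for the antiviral effector list, which includes Cd69 and Ms4a4b. It is 6 of 37 for NF-kB and MAP kinase signalling, 2 of 27 for transcription factors and 0 of 13 for interferon signalling. A gene can be on several lists, and cut genes on no list, such as Ifit2, Ifit3, Irf1 and Tlr1, are not shown.

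On no list were 84 named members, and the groups that follow were made after their values were seen and carry no test. Surface receptors and membrane proteins were the largest group with 18. Calcrl, the receptor of adrenomedullin and CGRP, which itself raises cyclic AMP, read 59.6, 1081 and 341 (-1.66), but its second probe set read 311 with LPS and 239 with 8-Br-cAMP. Met, the receptor of hepatocyte growth factor, read 161, 2071 and 960 (-1.11), and 99.8, 866 and 517 by its second probe set. Both stayed over 5-fold above unstimulated by their brightest probe sets. Clec5a, a C-type lectin of myeloid cells, read 249, 576 and 192 (-1.59), Ly75, the dendritic cell uptake receptor DEC-205, read 51.3, 177 and 71.9 (-1.30), and Cd180, a relative of Tlr4, read 36.5, 135 and 62.6 (-1.11). The others beside F3 and Lat were Fzd10, Flrt2, Dcbld2, Npr3, Oprd1, Nlgn2, Lrrc3b, Snn, Tmco3, Sgcb and Abcc5, with differences from -1.68 (Fzd10, a bound) to -1.02 (Snn).

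Transcription, chromatin and DNA factors numbered 15, with drops of -1.95 to -1.03. Plagl1, an imprinted zinc finger factor, read 36.9, 621 and 218 (-1.51), a rise of 4.07 that its second probe set (64.7 unstimulated, 52.0 with LPS) did not show. Ell2, an elongation factor, read 258, 1523 and 683 (-1.16). Nr1h3, the oxysterol-sensing liver X receptor alpha, was under the floor unstimulated and read 72.2 with LPS and 32.9 with 8-Br-cAMP. The others beside Cited2 were Nfxl1, Mllt3, Bcl9, Ncoa5, Lhx2, Zfp263, Zfp292, Cdyl2, Vrtn, Top1 and Nbn. The 5 RNA-binding or RNA-processing members were Cpeb4, Zc3h7a, Tra2a, Hnrnph3 and Noct, and all were within 2-fold of unstimulated with 8-Br-cAMP. Cpeb4, which controls mRNA polyadenylation, read 514, 2591 and 771 (-1.75), and 336, 2134 and 970 (-1.14) by its second probe set. Noct, nocturnin, a phosphatase of NADP under clock control, read 136, 604 and 215 (-1.49). Noct was counted here and not with the metabolic enzymes below, although this role is that of an enzyme.

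Signalling enzymes and adaptors (15 members, -1.83 to -1.0) held Phlpp1, a phosphatase of Akt, which read 210, 488 and 138 (-1.83), and Nck1, an adaptor to the actin machinery, which read 224, 1029 and 412 (-1.32). Adcy5, an adenylate cyclase, read 40.1, 95 and 40.9, but its 3 other probe sets were higher with 8-Br-cAMP, by 0.38 to 0.67, and 2 of them were under the floor with LPS. The others were Rgl1, Dgkh, Mtdh, Garem2, Sh3bp5, Apbb2, Plekho2, Plekhn1, Ppfia3, Speg, Hcls1 and Macir. Cytoskeleton, vesicle and organelle members numbered 12. Daam1, a formin that builds actin filaments, read 130, 752 and 230 (-1.71), and 54.1, 164 and 52.6 (-1.64) by its second probe set. Rab32, a GTPase of lysosome-related organelles, read 445, 1591 and 552 (-1.53), and Fnbp1l, a membrane-bending protein, read 164, 1177 and 502 (-1.23). The others were Gas7, Septin11, Katna1, Cln3, Micall2, Vezt, Rmdn3, Stxbp5l and Grtp1.

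Metabolic enzymes and lipid proteins other than Ddhd1 were Fabp4, Xylt2, Ggct, Chst2, Plaat3 and Cyp2j13. Fabp4, a fatty acid carrier of adipocytes and macrophages, read 391, 793 and 252 (-1.65). Secreted and matrix members were Cst7, Sod3, Wfdc21 and Lamb1. Cst7, the cathepsin inhibitor cystatin F, read 50.7, 304 and 80.4 (-1.92). The remaining members were H2-Q5, Gtpbp6, Lyrm7, Spata25, Hormad2, Spryd7, Ttc9 and Sh3tc1, with drops from -1.82 (Gtpbp6) to -1.03 (Lyrm7), both bounds.

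The comparison of LPS+8-Br-cAMP with unstimulated cells shows how much of the rise was left, and it is bound to the rule because it is the sum of the other 2 differences. Of the 129 members 30 (23.3%, Wilson interval 16.8 to 31.3) were still at least 2-fold above unstimulated and 96 were within 2-fold of it. In all measured genes 9.36% were at least 2-fold above unstimulated with LPS+8-Br-cAMP and 15.8% at least 2-fold below. Of the 686 other LPS-raised genes 526 (76.7%) were at least 2-fold above. The members' median was 0.16 log2 units above unstimulated and that of the other LPS-raised genes 1.61, while their median rises with LPS were 1.62 and 1.58.

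At least 2-fold below unstimulated were 3 members, Ms4a4b (-1.32), Ddhd1 (-1.28) and Rhob (-1.22). Of the 88 members above the floor on all 3 arrays 26 were below unstimulated with 8-Br-cAMP, 62 above it, and 38 within 0.5 log2 units of it. Lowest of the 88 relative to their rise were these 3 and Vezt (-0.75), Cdyl2 (-0.70), Fabp4 (-0.63), Phlpp1 (-0.61), Lamb1 (-0.61), Garem2 (-0.41) and Clec5a (-0.38). Vezt, a protein of adherens junctions, read 57.8, 133 and 34.3. Cdyl2, a chromodomain protein, read 61.9, 145 and 38.0, Lamb1, a laminin chain, 85.0, 176 and 55.7, and Garem2, an adaptor, 47.0, 98.7 and 35.4. All were dim, and the LPS array was the highest, as the rule requires. Among these 88, the largest share of the log2 rise was kept by Cd69 (84.3%), Met (69.9%), Malt1 (66.0%), Isg20 (65.9%), Nlrc5 (63.8%), Plagl1 (63.0%), Plekhn1 (62.7%), Ch25h (62.6%), Ddx60 (61.1%) and Calcrl (60.2%). Cmpk2 (84.7%), Iigp1 (74.3%) and H2-Q5 (61.0%) were under the floor unstimulated, so their shares are bounds and have no place in that order. Plekhn1 read 40.4, 272 and 133. Among genes with so large a rise, a 2-fold cut leaves most of the log2 rise by arithmetic.

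**Figure D4:**
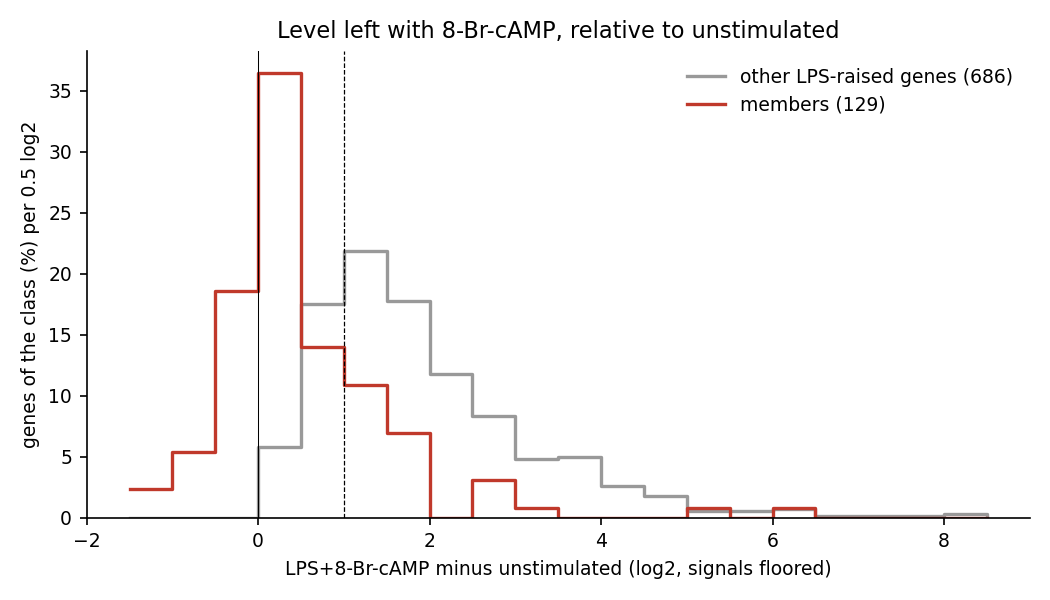
Percent of genes per 0.5 log2 units of the difference from unstimulated to LPS+8-Br-cAMP, for the 129 members (red) and the 686 other LPS-raised genes (grey); the dashed line is 2-fold. The members pile up near 0 and 3 of them lie below -1, while the other LPS-raised genes centre near 1.61.

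Second probe sets read the same RNA on the same arrays with other probes, and the rule did not use them. A second probe set existed for 63 members, and all 63 are counted with no filter on signal, a choice made after the values were seen; 13 were under the floor with LPS. It was higher with LPS than unstimulated in 44 of 63 and at least 2-fold higher in 29 (46.0%), against 4.45% of all 9010 genes with a second probe set and 54.3% of 422 LPS-raised genes that were not cut. It was lower with 8-Br-cAMP than with LPS in 46 of 63 (73.0%), against 30.9% of all and 51.7% of LPS-raised genes not cut. It was at least 2-fold lower in 17 (27.0%), against 4.18% of all and 8.06% of LPS-raised genes not cut. Both parts of the rule were met by 14 of 63 (22.2%) against 0.855% of all. The median drop over the 63 second probe sets was -0.42, smaller than the -1.30 by the probe sets that chose all 129 members. Over all 9010 the median was 0, and a probe set under the floor on both arrays can show no difference.

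Second probe sets that met both parts of the rule included those of Ddhd1, Cited2, Zc3h12c, Cp, Daam1, Fabp4, Cmpk2, Malt1, Nrp2, Cpeb4, Tmco3, Rmdn3, Abcc5 and Mtdh. Tmco3 read 38.8, 186 and 41.1 by its second probe set (-2.18) and 93.3, 402 and 195 by its brightest (-1.04). The second probe set was higher with 8-Br-cAMP than with LPS in 9 members and at the floor on both arrays in 8. The 9 were Bcl9 (0.73), Adcy5 (0.56), Septin11 (0.35) and Lipg (0.18), and, as bounds because LPS was under the floor, Stxbp5l (0.59), Fzd10 (0.48), Mllt3 (0.34), Rgl1 (0.32) and Nfxl1 (0.027). The remaining 66 members had 1 probe set, Nod1, Slamf8, Rasgef1b, Rhob, F3 and Ifnb1 among them, and could not be checked in this way.

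**Figure D5:**
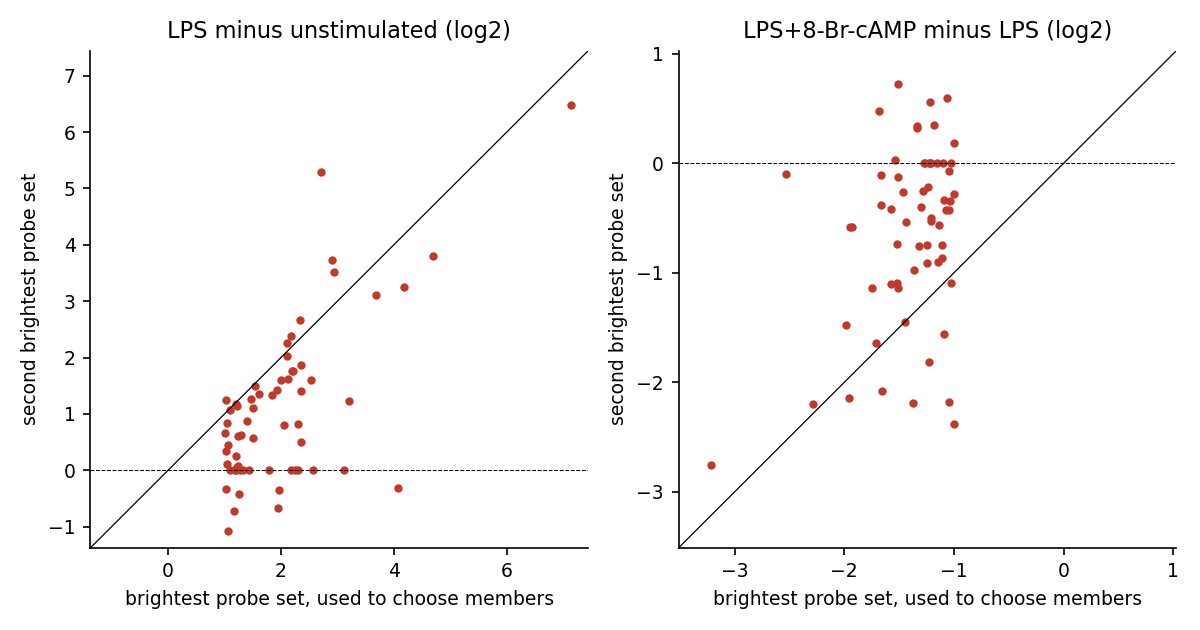
For the 63 members with a second probe set, the log2 difference by the brightest probe set (horizontal) is set against that by the second brightest (vertical), for LPS minus unstimulated (left) and LPS+8-Br-cAMP minus LPS (right); the solid line is equality. In the right panel 46 points lie below 0, 17 at or below -1, 9 above 0 and 8 at 0 where both arrays were under the floor, and most lie above the line of equality, which is a smaller drop.

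Membership depended on how the arrays were scaled, and the deposited trimmed means were 135 unstimulated, 111 with LPS and 63.2 with 8-Br-cAMP. With signals as deposited 85 of 129 members still met the limit for the rise and 113 that for the drop, and with spike scaling 79 and 84. Of the 129 members 114 met the rule under quantile normalization, median scaling and cyclic loess alike, 61 under these and also under spike scaling and with the signals as deposited, and 41 of those at every floor tried as well. The 41 included Ddhd1, Slamf8, Nod1, Rasgef1b, Zc3h12c, F3, Cited2, Cpeb4, Cst7, Daam1, Calcrl, Ifnb1, Atf3, Aim2, Nrp2, Mmp13, Isg20, Iigp1, Ddx60 and Cflar. Over the 5 scalings the drop was -4.02 to -3.01 for Ddhd1, -2.76 to -2.48 for Slamf8, -3.04 to -2.40 for Nod1 and -2.45 to -1.502 for Ifnb1. Not among the 41 were Cmpk2, Cd69, Icam1 and Malt1, and also Rhob, Ms4a4b and Cp from the largest drops. Rhob met the rule under 1 of the 5 scalings, with rises of 0.72 to 1.13, and Ms4a4b under 3, with rises of 0.88 to 1.46. Cp met it under all 5 and not with the floor at the 75th percentile.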

How the data were processed

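The deposited table holds linear signal intensity per probe set, made by the authors; the submitters' processing notes name MAS5. Which version and target they used is not given in the sources used here. The 64 control probe sets of 45101 were left out, and each array was multiplied by 0.763 (unstimulated), 0.929 (LPS) or 1.63 (LPS+8-Br-cAMP) to bring the 2% trimmed means to their average. The floor of 32.5 was the highest of the 3 array medians, and signals under it were set to it. A gene was represented by its single-gene probe set of highest mean signal, named by GEO's platform annotation; of the 129 members 127 matched a RefSeq gene with the same symbol. A gene was measured when above the floor on an array compared. The members, lists and motifs were chosen with earlier results of these data known. Named with signals on each array were the 10 members with the largest drop, the 10 with the largest rise, among members above the floor on all arrays the 10 that kept least and the 10 that kept most of the rise, and up to 4 of each list; others were added after their values were seen. No coordinates are given for probe sets, since no genome build is named. There was no test, since each condition had 1 array, and that number limits precision. The steps were tested on simulated data. Tools were Python 3.11.15, pandas 2.3.3, scipy 1.17.1 and limma 3.58.1 for quantile and cyclic loess normalization. Alternatives were other scalings, floors, probe set choices and folds.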

Additional observations from a re-analysis of the deposited data

How the results depend on the processing

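The drop and rise of the members rest on single arrays, and the main values were 129 members, 815 LPS-raised genes, 18.2% of them cut, 30 members still at least 2-fold above unstimulated, 44 genes raised further and a median drop of -1.30. Of 91 counts and medians 58 stayed within the limits set (1.5 times, or the error), among them the member counts under quantile normalization (160), median scaling (161) and cyclic loess (154), which kept 115, 129 and 119 of the 129. With spike scaling there were 61 members, 526 raised genes, 14.6% cut and 12 still above. With signals as deposited there were 270 members, 56.0% cut, 48 still above and 5 raised further. A floor at the 25th percentile gave 508 members, 1839 raised genes, 28.9% cut and 91 raised further, and one at the 75th gave 73, 15.6% cut, 17 still above and 27 raised further. A pseudocount gave 15.4% cut and 17 still above. The second brightest probe set, which fewer genes have, gave 72 members, 401 raised genes, 10 still above and 14 raised further. A limit of 1.5-fold gave 582 members, 1710 raised genes, 35.9% cut, 90 still above and 188 raised further; 3-fold gave 16, 406, 5.91%, 3 and 4, with a median drop of -1.95. The cause of these shifts was not tested beyond what each limit sets by construction.

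Of 2622 differences of named genes 2153 stayed, 444 moved and 25 changed sign. By the second probe set the drop became 0.56 for Adcy5, 0.73 for Bcl9, 0.48 for Fzd10, 0.18 for Lipg, 0.34 for Mllt3, 0.027 for Nfxl1, 0.32 for Rgl1, 0.35 for Septin11 and 0.59 for Stxbp5l. By it the rise became -0.67 for Bcl9, -1.08 for Il10ra, -0.42 for Nlgn2, -0.31 for Plagl1, -0.72 for Sgcb, -0.36 for Speg and -0.33 for Top1. With only plain probe sets, whose names end in _at alone, the drop was 0.56 for Adcy5, 0.34 for Mllt3 and 0.35 for Septin11, and the rise -0.51 for Fabp4 and -0.31 for Plagl1. The mean over probe sets gave a drop of 0.098 for Adcy5 and a rise of -0.0064 for Il10ra. Speg's rise was -0.69 with spike scaling and -0.64 as deposited, where another probe set became its brightest. No paired analysis was possible because each condition had 1 array. Signals near the floor of 32.5 carry only bounds.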

Other observations

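Of 9160 probe sets without a listed gene, 236 were LPS-raised and 94 of these (39.8%) were cut by the same rule, against 313 of 1511 (20.7%) for all probe sets with 1 gene and 13 of 46 (28.3%) for those with several genes. The 94 are unnamed here. Among those with several genes, picked after their values were seen, were probe sets for the Bcl2a1 survival genes (57.4 unstimulated, 239 with LPS, 77.2 with LPS+8-Br-cAMP) and for the apolipoprotein L genes Apol7c and Gm8221 (392.1, 3360 and 1224). The mirror class, at least 2-fold lower with LPS and at least 2-fold higher again with 8-Br-cAMP, held 187 of 1597 genes (11.7%).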
